A study of Homo sapiens with 4 samples.

Results

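The genes described here encode the heterogeneous nuclear ribonucleoproteins (hnRNPs), the serine/arginine-rich splicing factors (SR proteins) and core proteins of the spliceosome. A gene was included when its symbol began with HNRNP, SRSF and a digit, SF3A or SF3B and a digit, U2AF, PRPF or SNRP, and a peak was assigned to the gene of the RefSeq transcript named in its annotation. By this rule 42 of the 14149 peaks in the list lay in 15 of 74 protein-coding member genes, and the other 59 genes were unlisted. The peaks came from RNA immunoprecipitation sequencing (RIP-seq) in MDA-MB-231, a human triple-negative breast cancer cell line grown in DMEM with serum. A mouse antibody against HuR was used in 2 samples and mouse IgG in 2 control samples, and no other treatment or genotype is named for either group. RNA was sequenced without poly(A) selection. The result was 1 list for the whole series, so no level in a single sample, no spread between the replicates and no difference between HuR and IgG could be given for any gene.

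HuR, the product of ELAVL1, binds AU-rich and U-rich stretches in 3′-UTRs and introns and is known for stabilising mRNAs. hnRNPs coat nascent transcripts and often repress nearby splice sites, whereas SR proteins bind exonic enhancers and recruit the splicing machinery. The spliceosome itself is built from small nuclear RNAs most of them carrying a ring of Sm proteins, and from factors such as SF3A, SF3B and U2AF, which recognise the branch point and the 3′ splice site. Many SR and hnRNP genes control their own level by including a poison exon, an exon that makes the transcript a target of nonsense-mediated decay.

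To show the kinds of sequence under the peaks, U-rich stretches, AU-rich pentamers and splice sites were read from hg38 on the strand of the gene. All are written 5′ to 3′ with T for U. The first set gives the 29 bases with the most T in the highest peak of 4 genes, with runs of 3 or more T in capitals. In HNRNPL this stretch lay in the 3′-UTR (chr19:38836607-38836635, − strand) and 24 of its 29 bases were T. In HNRNPC it lay in intron 1 (chr14:21263646-21263674, − strand) with 18 T, in SF3B4 in intron 4 (chr1:149925446-149925474, − strand) with 20 T, and in SRSF6 in the 3′-UTR (chr20:43461116-43461144, + strand) with 14 T.
HNRNPL 3′-UTR: tcttgtattccTTTTTTTTTTTTTTTTTT
HNRNPC intron 1: atgtacaggtgTTTTTTTTTTaattgTTT
SF3B4 intron 4: ttcttgtctcTTTTTgcTTTTgcTTTTct
SRSF6 3′-UTR: ttactcttccatgTTTatacttggcctct

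The AU-rich pentamer ATTTA, in capitals in the second set, was present in the peaks of 5 of the 15 listed member genes. By peak, it was present in 9 of 42 (21.4%), against 50.5% of all peaks placed on a gene. The windows of 29 bases shown here come from the highest peak of HNRNPU (chr1:244855863-244855891, − strand, intron 11), from exon 3 of HNRNPL (chr19:38845854-38845882, − strand), from the 3′-UTR of SRSF1 (chr17:58003628-58003656, − strand) and from the 3′-UTR of HNRNPLL (chr2:38563317-38563345, − strand).
HNRNPU: tgagtgttctgtATTTAgttcaggatcga
HNRNPL: atcctgaaccccATTTAttcgatcaccac
SRSF1: tagatggtaaacATTTAaaggggaaaggg
HNRNPLL: agaattttggatATTTAcatttttatttt

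Because many of the peaks bordered exons, the third set shows the splice sites beside 4 of them, with 50 exonic bases in capitals and 50 intronic bases in lower case. The first 2 are the ends of HNRNPU exon 11, at the 3′ splice site (chr1:244856109-244856208, − strand) and at the 5′ splice site (chr1:244855854-244855953, − strand), where the annotated intron opens with gc in place of the usual gt. The other 2 are the 5′ splice site of HNRNPL exon 3 (chr19:38845803-38845902, − strand), whose exonic part holds the ATTTA given above, and the 3′ splice site of HNRNPL exon 11 (chr19:38837602-38837701, − strand), whose intronic part has a pyrimidine-rich end and an ATTTA of its own.
HNRNPU exon 11, 3′ splice site: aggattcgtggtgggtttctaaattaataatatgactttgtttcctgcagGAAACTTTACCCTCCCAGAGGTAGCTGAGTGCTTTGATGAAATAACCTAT
HNRNPU exon 11, 5′ splice site: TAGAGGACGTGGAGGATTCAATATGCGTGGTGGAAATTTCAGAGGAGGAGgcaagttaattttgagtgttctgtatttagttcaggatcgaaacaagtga
HNRNPL exon 3, 5′ splice site: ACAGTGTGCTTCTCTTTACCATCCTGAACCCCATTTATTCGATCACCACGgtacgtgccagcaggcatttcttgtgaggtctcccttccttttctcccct
HNRNPL exon 11, 3′ splice site: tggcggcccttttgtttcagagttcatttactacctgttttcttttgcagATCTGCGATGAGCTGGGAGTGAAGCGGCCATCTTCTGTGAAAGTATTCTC

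Peaks were found in about 1 in 5 of the genes, and these peaks had high scores. A peak was present in 15 of 74 genes, which is 20.3% (Wilson 95% interval 12.7% to 30.8%), against 15.4% of all 20056 protein-coding genes, a share that lies within the interval. The peak score is HOMER's own value for a peak, on a scale the authors did not state, and it is not an enrichment over IgG. The list holds no RNA level, so a high score cannot be read as strong binding by HuR. The median score of the 42 peaks was 541 with quartiles of 101 and 825, whereas the median of all peaks was 34.0 with quartiles of 17.6 and 83.4. Of the 42 peaks, 36 were at or above the median of the whole list and 33 at or above its upper quartile. The median rests in part on HNRNPL, which had 11 of the 42 peaks, and it was 196 over the 31 peaks of the other genes. When each gene was reduced to its highest peak, the median was 155 in the 15 genes and 34.0 in all 3313 listed genes.

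A score of 500 or more was reached by 23 of the 42 peaks and by 3.32% of all peaks. Counted by gene, 6 of 74 members had such a peak, or 8.11%, against 0.573% of all protein-coding genes. The limit of 500 was chosen after the scores were seen. These 6 genes were HNRNPUL1, SRSF6, HNRNPU, HNRNPL, SRSF1 and HNRNPA0, and the high peak of HNRNPUL1 lay outside that gene, which leaves 5 with such a peak of their own. All 6 were hnRNP or SR genes. The remaining 9 genes had best scores from 9.54 to 201.6.

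**Figure D1:**
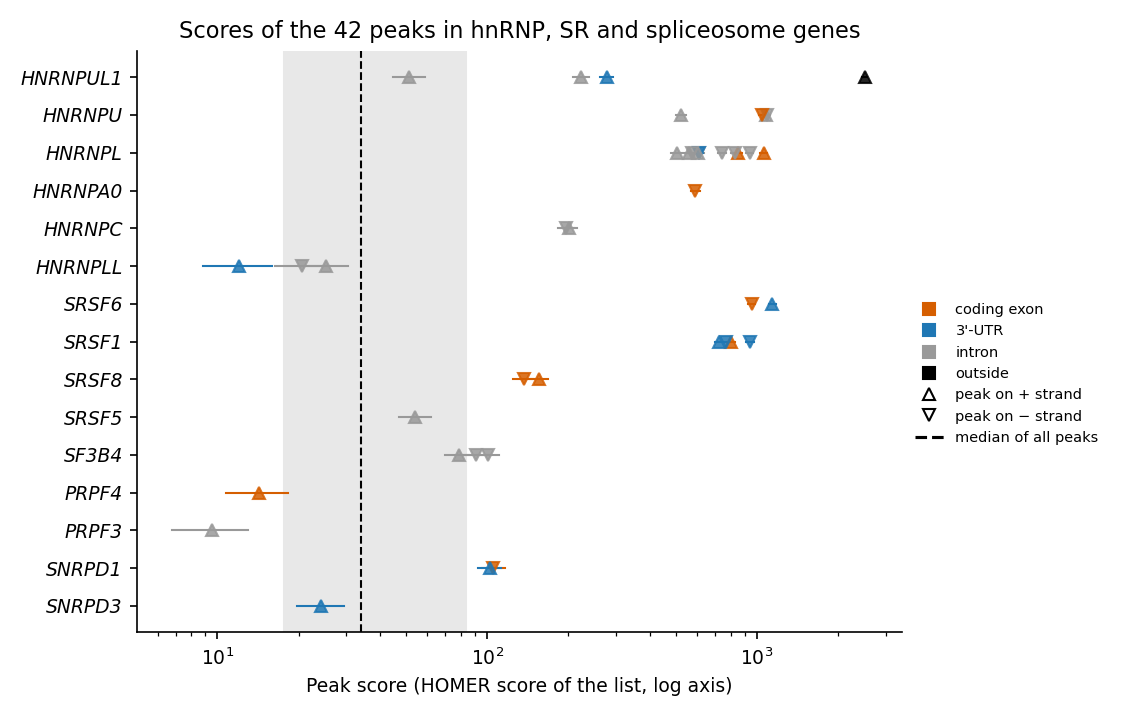
Scores of the 42 peaks by gene, on a log axis, with 1 symbol per peak coloured by the region of the canonical transcript at its centre and pointing up for the + strand and down for the − strand. Bars give exact Poisson 95% intervals in score steps, the dashed line is the median of all peaks (34.0) and the grey band spans their quartiles (17.6 to 83.4). The peaks of HNRNPL, HNRNPU, SRSF1 and SRSF6 all lie above 500, and all peaks of HNRNPLL, PRPF3, PRPF4 and SNRPD3 lie below the median.

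Scores under 100 lay on multiples of a step of 0.245 in 98.3% of 11121 peaks, against 40.9% by chance. If 1 step stands for 1 sequenced tag, which the authors do not state, the weakest member peak (PRPF3, 9.54) would hold 39 tags and the strongest (HNRNPUL1, 2506.9) 10245 tags. The intervals given for single scores are exact Poisson 95% intervals under this reading, and they cover counting error only, because the reads carry no molecular identifiers.

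Among the hnRNP genes, 6 of 26 had a peak (23.1%, Wilson 11.0% to 42.1%), and together these held 25 of the 42 peaks. HNRNPL, which binds CA-rich RNA and regulates alternative exons, had the most peaks of any member. Its 11 peaks scored from 503.9 to 1061.1 with a median of 610, so that even the lowest stood far above the upper quartile of the list. A count of 11 or more peaks was found for 299 of 3313 listed genes, whereas a gene had a median of 2 peaks both among members and in the whole list.

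The peaks of HNRNPL lay in or beside its exons, and nearness to exons was common in the list. Of all 8877 intronic peaks, 96.4% lay within 347 bp of an exon, and their median distance was 101 bp. The highest, at 1061.1 (interval 1030 to 1093), was centred in the coding part of exon 13 of 13, the last exon. The peak of the opposite strand beside it scored 610.1 and was centred in the 3′-UTR, and the run of T shown above lay where the 2 peaks meet. Another pair enclosed exon 3, with 848.9 in the exon and 940.2 in intron 3, at 55 bp from the exon, and the latter reached over exon 4. The remaining 7 peaks were all intronic and lay from 35 to 89 bp from the nearest exon, beside exons 2, 5, 6, 10, 11 and 12. Pairs of opposite strand flanked exon 10 on its 2 sides (503.9 upstream and 743.9 downstream) and enclosed exons 5 and 6 (558.9 and 610.3) and exons 11 and 12 (603.7 and 832.3), while exon 2 had a peak downstream alone (573.4). No peak overlapped exon 1, 7, 8 or 9. A readthrough gene and the neighbouring ECH1 share this end of the locus, and 6 of the 11 peaks carried ECH1 in the gene name column of the list.

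HNRNPU, a nuclear matrix protein that binds RNA and chromatin, had 4 peaks. Those on either side of exon 11 scored 1087.5 (interval 1056 to 1120) and 1077.0 (1045 to 1109), and these intervals overlap. Both were centred in introns, 44 and 64 bp from the exon whose splice sites are printed above. The third peak scored 1046.6 and lay wholly in exon 1, centred in coding sequence and reaching into the 5′-UTR (64.8% GC), where a long non-coding RNA gene overlaps on the opposite strand, and the fourth, at 523.0, was centred in intron 1, 31 bp from exon 2. The 3 highest peaks thus had scores within 1046.6 to 1087.5, although their GC content was 33.7%, 34.6% and 64.8%. A further peak of 996.7 lay in the 3′-UTR of HNRNPU, in exon 14 of 14, and was not counted because its annotation named SNORA100, a small nucleolar RNA within the locus. The gene name column gave SNORA100 for both peaks at exon 11 as well.

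**Figure D2:**
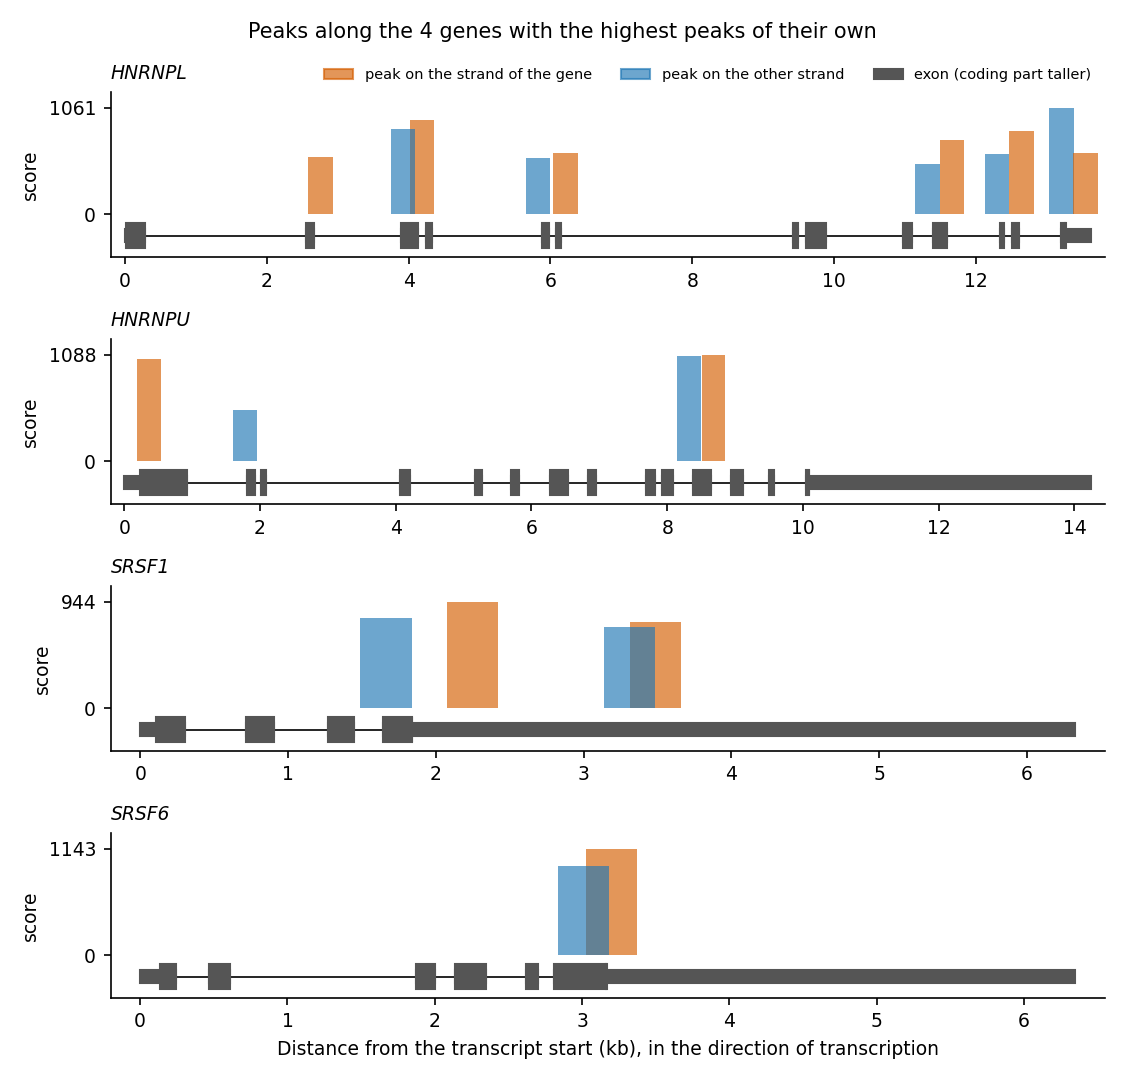
Peaks along HNRNPL, HNRNPU, SRSF1 and SRSF6, with distance from the start of the canonical transcript in kb on the horizontal axis and the peak score as the height of each bar. Bars span the 347 bp of a peak, orange on the strand of the gene and blue on the other strand, above the exons in grey. HNRNPL has peaks beside exons towards both ends of the gene (503.9 to 1061.1), whereas those of SRSF1 and SRSF6 are centred in the last exon.

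HNRNPUL1, a relative of HNRNPU, had the highest score of the members at 2506.9 (interval 2459 to 2556). This peak (chr19:41261371-41261717) carried a promoter annotation for HNRNPUL1 but lay outside the body of that gene, in AXL, the gene of a receptor tyrosine kinase directly upstream. The score of 2506.9 therefore cannot be assigned to HNRNPUL1 RNA from this list. Its peaks within the gene scored 277.8 in the 3′-UTR (exon 15 of 15), 222.7 in intron 13 at 28 bp from exon 13, and 51.4 in intron 4 at 136 bp from exon 4. The first 2 also overlapped TGFB1 on the opposite strand, and since the library kit does not preserve strand, reads of the 2 genes cannot be told apart.

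The other hnRNP genes had fewer or weaker peaks. HNRNPA0, a single-exon gene whose protein binds AU-rich elements, had 1 peak of 591.5 (interval 568 to 615) in its coding sequence, with 60.5% GC, 0 ATTTA and no run of 5 T. No peak lay in its 3′-UTR of 7498 bp, the longest of the listed members. HNRNPC, a protein that binds U tracts, had a pair of peaks of 201.6 (188 to 216) and 196.3 (183 to 210) whose intervals overlap. Both lay at the start of the gene, the first in intron 1 at 479 bp from an exon and the other in intron 2 at 4 bp from exon 2. HNRNPLL, a relative of HNRNPL, had 3 low peaks of 25.2 (20.6 to 30.6), 20.6 (16.4 to 25.4) and 12.0 (8.87 to 15.9), centred in intron 7, in intron 12 and in the 3′-UTR. A further peak of 14.7 in the 3′-UTR of HNRNPLL was not counted, because it was annotated as intergenic. The counted peaks of HNRNPLL were rich in AU, with 27.7% to 32.0% GC and 8 ATTTA in all, and all of them scored below the median of the list, whereas the 11 peaks of HNRNPL had 42.4% to 56.2% GC and held 2 ATTTA.

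The remaining hnRNP genes were unlisted. No peak was assigned to HNRNPA1, HNRNPA1L2, HNRNPA1L3, HNRNPA2B1, HNRNPA3, HNRNPAB, HNRNPCL1, HNRNPCL2, HNRNPCL3, HNRNPCL4, HNRNPD, HNRNPDL, HNRNPF, HNRNPH1, HNRNPH2, HNRNPH3, HNRNPK, HNRNPM, HNRNPR or HNRNPUL2. HNRNPD, also called AUF1, is itself an AU-rich element binding protein. An absent gene is one with no peak in this selected list, and its RNA level and its signal in any sample were not measured here.

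Of the 12 SR protein genes, 4 had a peak (33.3%, Wilson 13.8% to 60.9%). SRSF6 had 2 peaks, of 1142.6 (interval 1110 to 1176) on the + strand and 957.6 (928 to 988) on the − strand, which overlapped each other in exon 6 of 6 around the end of the coding sequence. The higher was centred in the 3′-UTR and the lower in coding sequence. SRSF1, the prototype SR protein, had 4 peaks of 944.4, 802.4, 767.2 and 724.8, all centred in exon 4 of 4. The peak of 802.4 was centred in the coding part and reached over the start of the exon into intron 3, with 191 of its 347 bp in the exon. The rest lay in the 3′-UTR, and the intervals of the lower 2 overlap (741 to 794 and 699 to 751). In these 2 genes the peaks were thus centred in the last exon, with 1 ATTTA among the 6 peaks, in the SRSF1 peak of 767.2. The list annotated 5 of these 6 peaks as non-coding, because the transcript named was a non-coding RefSeq isoform of the gene. All 6 also overlapped a second annotated protein-coding gene on the same strand.

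The other 2 listed SR genes scored lower. SRSF8, a single-exon gene closely related to SRSF2, had 2 peaks, centred in coding sequence, of 155.4 (144 to 168) and 136.6 (125 to 148) whose intervals overlap, with 54.5% and 58.5% GC and 0 ATTTA. How reads shared with the related gene were placed is not given in the sources used here. SRSF5 had 1 peak of 54.1 (47.2 to 61.7), annotated to intron 5 of 7 and 592 bp from the nearest exon of the canonical transcript. All 347 bp of it lay on exon sequence of transcripts annotated for nonsense-mediated decay that no protein-coding transcript of the gene has. The unlisted SR genes were SRSF2, SRSF3, SRSF4, SRSF7, SRSF9, SRSF10, SRSF11 and SRSF12. A peak of 486.0 in intron 3 of SRSF9 was not counted, since its annotation named the overlapping gene GATC.

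Among the members, no peak of the core spliceosome genes (SF3A, SF3B, U2AF, PRPF and SNRP symbols) scored over 105.5. The upper quartile of all peaks was 83.4. In each of these groups the interval of the share of genes with a peak includes the 15.4% of all protein-coding genes. In the SF3A and SF3B group 1 of 9 genes was listed (11.1%, Wilson 1.99% to 43.5%). This was SF3B4, a protein of the U2 particle that contacts RNA near the branch point, with peaks of 100.8 (91.3 to 111), 90.8 (81.8 to 101) and 78.3 (70.0 to 87.4). All 3 lay in intron 4 of 5 with 0 bases in an exon, at 355 to 791 bp from the nearest one. They differed in this from the peaks of HNRNPL and HNRNPU, none of whose intronic peaks was more than 89 bp from an exon. SF3A1, SF3A2, SF3A3, SF3B1, SF3B2, SF3B3, SF3B5 and SF3B6 were unlisted. None of the 3 U2AF genes, U2AF1, U2AF1L4 and U2AF2, had a peak (0%, Wilson 0% to 56.1%).

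The 12 SNRP genes encode Sm proteins and proteins of the U1 and U2 particles. Of these, 2 had a peak (16.7%, Wilson 4.70% to 44.8%, against 15.4% of all protein-coding genes), both for Sm ring proteins. SNRPD1 had peaks of 105.5 (95.7 to 116), centred in the coding part, and 102.3 (92.7 to 113), in the 3′-UTR of exon 4 of 4, with overlapping intervals and 3 ATTTA together. SNRPD3 had 1 peak of 24.2 (19.7 to 29.5) in its 3′-UTR. The 12 PRPF genes likewise included 2 with a peak, with the same share and interval. These were PRPF4 at 14.2 (10.8 to 18.3) at exon 6 of 14 and PRPF3 at 9.54 (6.79 to 13.0) in intron 1. Their proteins are partners in the U4/U6 particle, and both peaks were below the lower quartile of the list. SNRPA, SNRPA1, SNRPB, SNRPB2, SNRPC, SNRPD2, SNRPE, SNRPF, SNRPG and SNRPN were unlisted, as were, among others, PRPF6, PRPF8, PRPF18, PRPF19, PRPF31, PRPF38A, PRPF38B, PRPF39 and PRPF40B. The kinase gene once named PRPF4B, now PRP4K, had an intronic peak of 42.3 and was not counted under its present symbol.

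To ask where in the transcripts the peaks lay, the deposited annotation was compared with the canonical transcript of each gene. In the deposited annotation 22 of 42 peaks were intronic, or 52.4% (37.7% to 66.6%), against 61.9% of all peaks. To a 3′-UTR, 2 of 42 were annotated to a 3′-UTR, or 4.76% (1.32% to 15.8%), against 14.6% of all peaks. Both shares of all peaks lie within the members' intervals. As non-coding, 7 were annotated, or 16.7% (8.32% to 30.6%), against 3.44%, which lies below the interval. These 7 belonged to SRSF1, SRSF6, PRPF4 and SNRPD3. Placed on the canonical transcripts, 9 of the 42 centres lay in a 3′-UTR (21.4%, 11.7% to 35.9%, against 17.1% of 13790 peaks). Coding exons held 10 (23.8%, 13.5% to 38.5%, against 13.1%, which lies below the interval), while 22 were intronic. The 3′-UTR share of the members was thus below that of all peaks by the deposited annotation and above it on the canonical transcripts. With either annotation the 3′-UTR share of all peaks lies within the members' interval.

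Each peak has 1 strand in the list, and peaks of opposite strand often lay side by side. There were 14 such pairs within 1000 bp in the member genes, and the + peak lay on the right, at the higher coordinate, in 13 of them, as it did in 3309 of 3584 pairs in the whole list. The median distance between the centres was 344 bp in the members (172 to 676) and 338 bp in all pairs. Peaks lay on the strand of their own gene in 26 of 42 cases (61.9%, 46.8% to 75.0%), against 53.2% of all peaks, a share within the interval. Since the library kit does not preserve strand, the strand of a peak does not give the strand of the RNA. For HNRNPL the share was 6 of 11 and for HNRNPU 2 of 4.

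Because of this arrangement, the edge of each peak that lies back against its strand was also examined, in place of its centre. There 13 of 42 peaks were intronic (31.0%, 19.1% to 46.0%), 15 lay in coding exons (35.7%, 23.0% to 50.8%) and 11 in 3′-UTRs (26.2%, 15.3% to 41.1%). Over all peaks the shares were 20.2%, 53.2% and 18.7%, of which the coding share alone lies outside the interval of the members. The nearest exon lay behind 20 of the 22 intronic peaks (90.9%, 72.2% to 97.5%), against 97.8% of all intronic peaks. Of the 22, 17 were within 347 bp of their nearest exon (77.3%, 56.6% to 89.9%), against 96.4% of all intronic peaks. The 5 that were farther away were the 3 of SF3B4, the SRSF5 peak and 1 of HNRNPC.

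**Figure D3:**
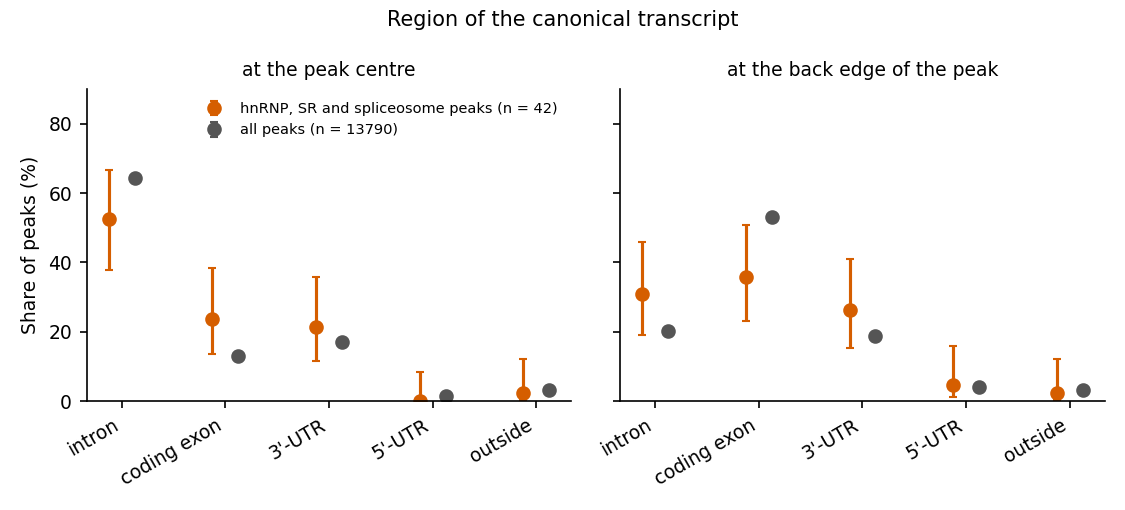
Share of peaks in each region of the canonical transcript, in percent, at the peak centre (left) and at the back edge of the peak (right), for the member peaks (orange) and all peaks (grey), with Wilson 95% intervals. The back edge lowers the intronic share of the members from 52.4% to 31.0% and that of all peaks from 64.4% to 20.2%.

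HuR is known to bind AU-rich and U-rich RNA, so the sense strand of each peak was searched for ATTTA, for TATTTAT, which contains it, and for 5 T in a row. ATTTA was present in 9 of 42 member peaks (21.4%, 11.7% to 35.9%) and in 50.5% of all 13790 peaks placed on a gene. TATTTAT was found in 1 member peak, the HNRNPLL peak of 25.2 (2.38%, against 9.11%), and 5 T in a row in 19 (45.2%, against 68.5%). In a window of the same length centred on the back edge, ATTTA was found in 13 of 42 (31.0%, 19.1% to 46.0%), against 47.1% of all peaks. The share of all peaks lay above the members' interval in both windows, in the shifted one by a small margin.

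Base composition differed alongside. The median GC content was 45.4% in the member peaks (27.7% to 64.8%) and 38.3% in all peaks. Below 40% GC, ATTTA was present in 5 of 11 member peaks (45.5%, 21.3% to 72.0%) and in 69.8% of all peaks, from 40% to under 50% GC in 3 of 17 (17.6%, 6.19% to 41.0%) and 38.5%, and at 50% GC or more in 1 of 14 (7.14%, 1.27% to 31.5%) and 8.63%. In the 2 lower ranges the members had the smaller share, although the share of all peaks lay within the members' interval in each range. By region, ATTTA was present in 5 of 22 intronic member peaks (22.7%, 10.1% to 43.4%), against 55.3% of all intronic peaks. It was present in 1 of 10 coding peaks (10.0%, 1.79% to 40.4%, against 35.6%) and in 3 of 9 peaks in a 3′-UTR (33.3%, 12.1% to 64.6%, against 52.6%).

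**Figure D4:**
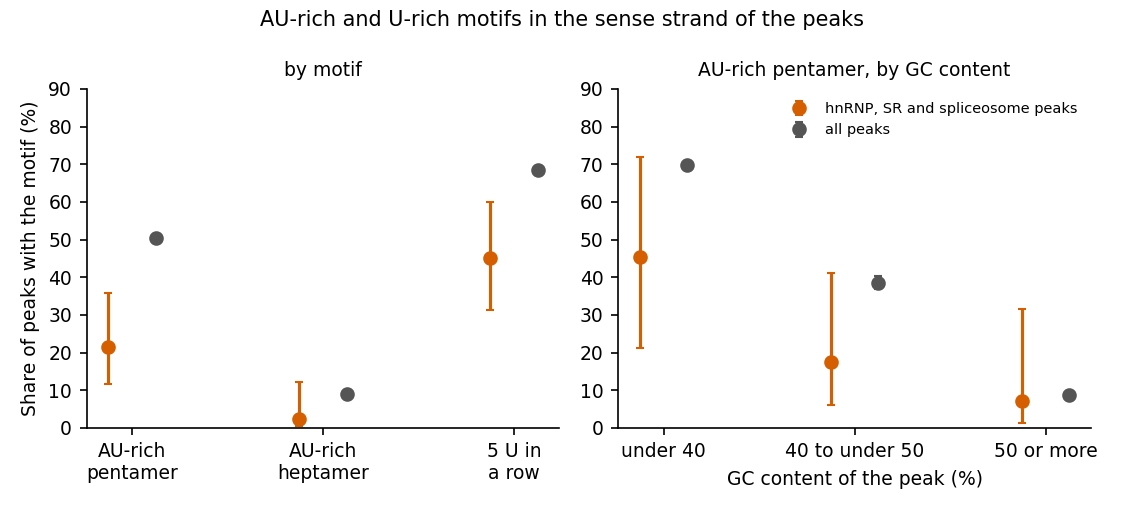
Share of peaks, in percent, that held each motif on the sense strand (left) and that held the AU-rich pentamer within ranges of GC content (right), for the member peaks (orange) and all peaks (grey), with Wilson 95% intervals. The member peaks held the pentamer in 21.4% of cases and all peaks in 50.5%, and within GC ranges the intervals of the members include the share of all peaks.

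Since SR and hnRNP genes are known for poison exons, peaks were compared with exons that belong to transcripts annotated for nonsense-mediated decay and to no protein-coding transcript. Such bases were covered by 2 of 42 peaks (4.76%, 1.32% to 15.8%), against 1.49% of all peaks, a share within the interval. These were the SRSF5 peak, over its full 347 bp, and the HNRNPU peak of 1087.5 in intron 11, over 217 bp. The other 130 bp of the HNRNPU peak lay in exon 11, so the 217 bp directly adjoin that exon and show no separate poison exon. In the window centred on the back edge there were 3 (7.14%, against 2.01%), the added one being the HNRNPU peak of 1077.0 upstream of exon 11. With retained introns counted too, 9 of 42 peaks were included (21.4%, 11.7% to 35.9%, against 8.51%), of which 5 were in HNRNPL. Without HNRNPL it was 4 of 31 (12.9%, 5.13% to 28.9%), and this interval includes the 8.51%.

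Lengths were compared because longer transcripts could offer more room for peaks, which was not tested. The median 3′-UTR was 2213 bp (225 to 7498) in the 15 listed and 672 bp (31 to 6795) in the 59 unlisted members, and the corresponding medians over all genes were 2498 and 835 bp. The total exon length was 3925 bp in listed and 2337 bp in unlisted members, against 4760 and 2618 bp over all genes. For the gene body with its introns, the medians were 21211 bp in listed and 16039 bp in unlisted members. Over all genes they were 64152 and 22348 bp. HNRNPL, with 11 peaks, had a 3′-UTR of 352 bp.

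The other genes of the splicing pathway, grouped in 5 lists of 109 genes that do not match the symbols above, are given for comparison. Of these, 38 had a peak (34.9%, Wilson 26.6% to 44.2%), with 219 peaks and a median score of 129. SR-related proteins and SR kinases had 10 of 21 (47.6%, 28.3% to 67.6%) and other splicing regulators 17 of 37 (45.9%, 31.0% to 61.6%), whereas the Prp19 complex and the proteins of the catalytic steps had 5 of 30 (16.7%, 7.34% to 33.6%). The LSM proteins had 3 of 8 and the U1, U5, tri-snRNP and minor snRNP proteins 3 of 13. In the latter list SNRNP40 alone held 16 of the 18 peaks, the best at 242.5, above any core spliceosome member. The intervals of the SR-related list and of the other regulators lie above the 15.4% of all protein-coding genes, and those of the other 3 lists include it.

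The highest best peaks in these lists were those of SFPQ (1154.1, a coding exon), a paraspeckle protein, PCBP2 (1047.4, the last exon) and PCBP1 (829.3, its single exon), which bind poly(C), SRPK1 (804.6, intron 11), a kinase that phosphorylates SR proteins, and MBNL1 (674.9, the 3′-UTR), a regulator of alternative exons. By comparison, 8 of 54 genes of the DEAD-box and DEAH-box helicases (14.8%, 7.70% to 26.6%) and 19 of 70 genes of translation initiation and elongation factors (27.1%, 18.1% to 38.5%) were listed. The median scores of their peaks were 33.3 and 90.5, against 541 for the members, or 196 without HNRNPL.

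**Figure D5:**
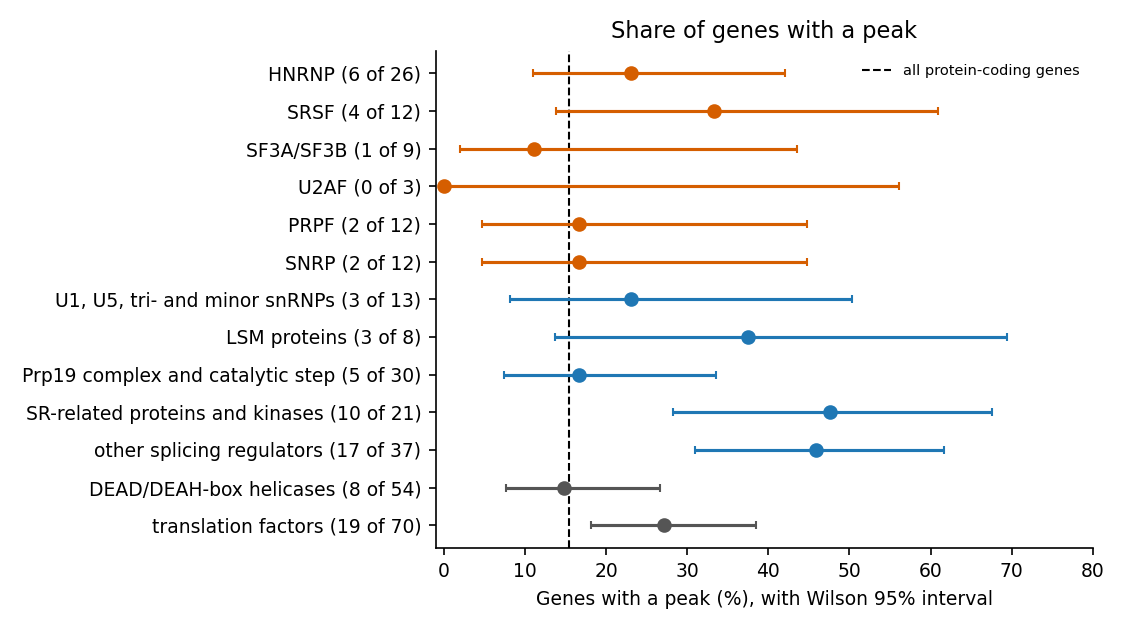
Share of genes with a peak, in percent, for the 6 symbol groups of the members (orange), the 5 lists of other splicing genes (blue) and 2 other gene families (grey), with Wilson 95% intervals and the number of genes beside each name. The dashed line is the share over all protein-coding genes (15.4%), which lies within the interval of each of the 6 symbol groups.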

How the data were processed

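RIP-seq reads of 2 HuR RIP and 2 IgG RIP samples (biological replicates per the study) were mapped by the authors to hg38 with STAR, and peaks were called with HOMER and kept where transcript abundance changed significantly. The threshold, program versions, pooling, tag shift and the treatment of reads that map to several places are not given in the sources used here. The methods name ANNOVAR for annotation, whereas the file header shows a HOMER command. The deposited peak score is HOMER's own value and the deposited focus ratio and region size are fractions per the file headers. The distance to the nearest transcription start was deposited too and was not used. Library depth is unknown. Kept peaks were selected upstream, so an absent gene has no measured value, and not every unlisted member is reported here by name.

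RefSeq transcripts were matched to RefSeq genes (GRCh38.p14) for 13838 of 13929 peaks and to GENCODE 44 for 13790, and regions are those of the canonical transcript. Coordinates are 1-based. Shares carry Wilson 95% intervals. They cover counting error only, and genes and peaks are not replicates, so no test was made. The planned edgeR test of HuR RIP against IgG RIP was not run, because the list holds no counts per sample. Every gene with a peak is described, and other splicing genes are named for the 5 highest best peaks. SNRNP40 and the uncounted peaks were named after their values were seen. The members and lists were chosen with earlier results of these data known. Python 3.11.15, numpy 2.4.6, scipy 1.17.1, pandas 2.3.3, pysam 0.24.0 and matplotlib 3.10.9 were used, and the functions were tested on simulated data.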

Additional observations from a re-analysis of the deposited data

How the results depend on the processing

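No paired analysis was possible because values per sample were not at hand, and the replicate block, the fits without 1 replicate and DESeq2 were not run. For 7 results, 34 alternatives were tried, 6 of them chosen after seeing the data, and 27 stayed within the interval of the value reported. The other 7 did not. The share of peaks in introns was 31.0% at the back edge of the peaks. The share in 3′-UTRs was 21.4% with the canonical transcript at the centre and 26.2% at the back edge. In place of the 21.4% with ATTTA, 2.38% held TATTTAT and 45.2% held 5 T in a row. Both deposited 3′-UTR peaks, or 100%, lay on the strand of their gene. Peaks on unproductive exons came to 21.4% with retained introns. The median score of 541 was 400 with 1 peak per merged locus, 196 without HNRNPL and 155 for the best peak of each gene. With the gene name column the share of genes with a peak was 24.3%, and with the older symbol of PRP4K counted it was 21.3%. Depth was unknown, so no limit of detection can be given for the unlisted genes.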

Other observations

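The gene assigned to a peak changed with the column read. The gene name column, which gives the gene with the nearest transcription start, matched the host gene for 30 of the 42 peaks and named another gene for 12 (28.6%, Wilson 17.2% to 43.6%), against 43.3% of all peaks. Read by that column alone, 18 further peaks would be counted, of which 8 lay in AXL and carried the name HNRNPUL1, with scores up to 2768.7.

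Members differ in how many pseudogenes bear their name in the RefSeq gene table, as the symbol followed by P and a number. A peak was found for 9 of 39 members with no such pseudogene (23.1%, 12.6% to 38.3%), for 5 of 26 with 1 to 4 (19.2%, 8.51% to 37.9%) and for 1 of 9 with 5 or more (11.1%, 1.99% to 43.5%). These intervals overlap, and each includes the 15.4% of all protein-coding genes. HNRNPA1 has 75 pseudogenes so named, SNRPC and SNRPG 20 each, HNRNPA3 17 and SNRPE 11, and all of these genes were unlisted. The 1 listed member with 5 or more was HNRNPC, with 9. The part of multi-mapping reads in this was not tested.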
